A study of Mus musculus with 6 samples.

Results

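The unfolded protein response and the integrated stress response were followed through 39 genes in mouse bone marrow-derived macrophages, and the 39 were found by symbol among the 21878 genes of the count table. They comprise 24 genes of the XBP1/ATF6 chaperone branch and 15 genes of the ATF4 branch. Macrophages were grown from the marrow of wild-type C57BL/6 mice with 50 ng/mL macrophage colony-stimulating factor, and co-cultured for 48 h with, but separated by a 0.4 µm transwell insert from, LLC cells, which derive from a mouse Lewis lung carcinoma. After a change of medium, β-elemene, a plant sesquiterpene, was given at 100 µg/mL for 24 h (3 libraries), or the same volume of phosphate-buffered saline (PBS, 3 libraries). The carcinoma co-culture was common to both groups, so neither holds macrophages that were not exposed to carcinoma cells.

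The endoplasmic reticulum folds secreted and membrane proteins, and 3 membrane sensors report when folding falls behind. IRE1, encoded by Ern1, splices the Xbp1 transcript into the form that makes an active factor, and ATF6 is cut to release its own factor. Both factors raise chaperones, disulfide isomerases and the machinery that sends failed proteins to the proteasome. PERK, encoded by Eif2ak3, phosphorylates eIF2α, which lowers general translation and favours translation of ATF4. Eif2ak3 was nevertheless counted with the other sensors in the chaperone branch. ATF4 also answers amino acid shortage and other stresses and drives genes for amino acid synthesis, redox balance and feedback. Counts per gene show transcript abundance, and the splicing of Xbp1, the cutting of ATF6, the phosphorylation of eIF2α and the translation of Atf4 were not measured.

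Total gene counts lay between 18916844 and 20729887 per library, and values below are CPM (counts scaled to a common library total) after TMM scaling, which corrects for composition. Genes at least 4-fold higher with β-elemene after TMM scaling held 26.7% to 28.6% of all counts in the β-elemene libraries, against 3.53% to 4.11% in the PBS libraries. That set was picked from the same fit, so the direction of this difference was fixed in advance and only its size describes the libraries. Relative to TMM, scaling by library size alone shifted the median of all genes by -0.64 on the log2 scale, and the upper quartile shifted it by -0.32. The members were therefore followed under 4 scalings (TMM, median of ratios, upper quartile and library size alone). Macrophage markers were abundant, with the 7 listed summing to 15338 to 15983 CPM with β-elemene and 12462 to 13413 CPM with PBS. Lyz2 made up most of that sum (9200 CPM with β-elemene, 6780 CPM with PBS), and single markers moved both ways, with Fcgr1 at 1490 CPM with β-elemene and 206 CPM with PBS and Csf1r at 928 CPM with β-elemene and 2670 CPM with PBS. The 6 carcinoma and epithelial markers summed to at most 0.195 CPM with β-elemene and 0.194 CPM with PBS, and Krt19 and Cldn4 had 0 counts in the 6 libraries. The 5 stromal markers summed to 1.56 to 3.38 CPM with β-elemene and 12.7 to 16.4 CPM with PBS. The 3 plasma cell markers summed to 206 to 296 CPM with β-elemene and 196 to 219 CPM with PBS, of which Sdc1 averaged 230 and 201 CPM, Jchain 10.5 and 4.09 CPM and Mzb1 0.19 and 0.117 CPM. The 6 neutrophil and precursor markers summed to 21.4 to 23.5 CPM with β-elemene and 6.55 to 8.97 CPM with PBS, with Camp and S100a8 higher and Mpo lower. Dendritic markers summed to 0.429 to 1.72 CPM with β-elemene and 3.20 to 4.23 CPM with PBS, lymphoid markers to 0.369 to 0.613 CPM and 0.117 to 0.155 CPM, and mast cell and basophil markers to 0.651 to 1.35 CPM and 0 to 0.078 CPM. The part of these cell types in the results was not tested, and in bulk samples fewer cells of a type and less RNA per cell cannot be told apart. Whether replicates were separate cultures or animals is not in the labels, so the p-values cover the spread among these 6 libraries only, and it may be technical.

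Both branches held members that rose and members that fell. Of the 38 members tested, 17 were higher with β-elemene, 13 were lower and 8 did not pass (edgeR quasi-likelihood test, adjusted over the 11459 genes tested, threshold 0.05). Across all genes tested 76.7% passed, 36.6% in the higher and 40.2% in the lower direction, so the members' share of 78.9% lies near the background. The median log2 fold change was 0.12 over the members, with a range of -2.01 to 1.94, and -0.06 over all genes tested. A change of at least 2-fold was found for 5 members that rose and 7 that fell, where 17.0% of all genes tested rose and 18.3% fell that far. For 30 of the 38 the 2 groups were fully separate, beside 79.9% of all genes tested. Each of the 38 tested members stood above the count minimum in the 6 libraries, so none passed the filter through 1 group alone. Vldlr did not reach it and was not tested.

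In the chaperone branch 10 of 24 members were higher, 7 lower and 7 did not pass, with a median of 0.07. In the ATF4 branch 7 of 14 tested were higher, 6 lower and 1 did not pass, with a median of 0.14. Counts of risen members rest on the scaling, since with library size alone 3 chaperone members were higher and 20 lower, and 4 ATF4 members were higher and 8 lower. That scaling called 88.7% of all genes, 18.9% higher and 69.8% lower. The upper quartile gave 8 members higher and 20 lower, beside 82.7% of all genes called, 25.7% higher and 57.0% lower. Median-of-ratios factors gave 18 higher and 13 lower, beside 76.5% called, 38.3% in each direction. Under all 4 scalings 7 members were higher, namely Hspa5, Edem1, Syvn1, Nupr1, Ppp1r15a, Psat1 and Phgdh. The other 10 risen members turned or lost the call under at least 1 scaling. Another 13 were lower under all 4, namely Ern1, Eif2ak3, Hyou1, Dnajb9, Dnajc3, P4hb and Pdia4 in the chaperone branch and Cebpg, Trib3, Chac1, Sesn2, Asns and Shmt2 in the ATF4 branch. Over all genes tested 18.9% were higher and 38.3% were lower under all 4 scalings, which again lies close to the members' share. The upper quartile and library size alone shifted values down relative to TMM, so a fall held more easily than a rise.

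**Figure D1:**
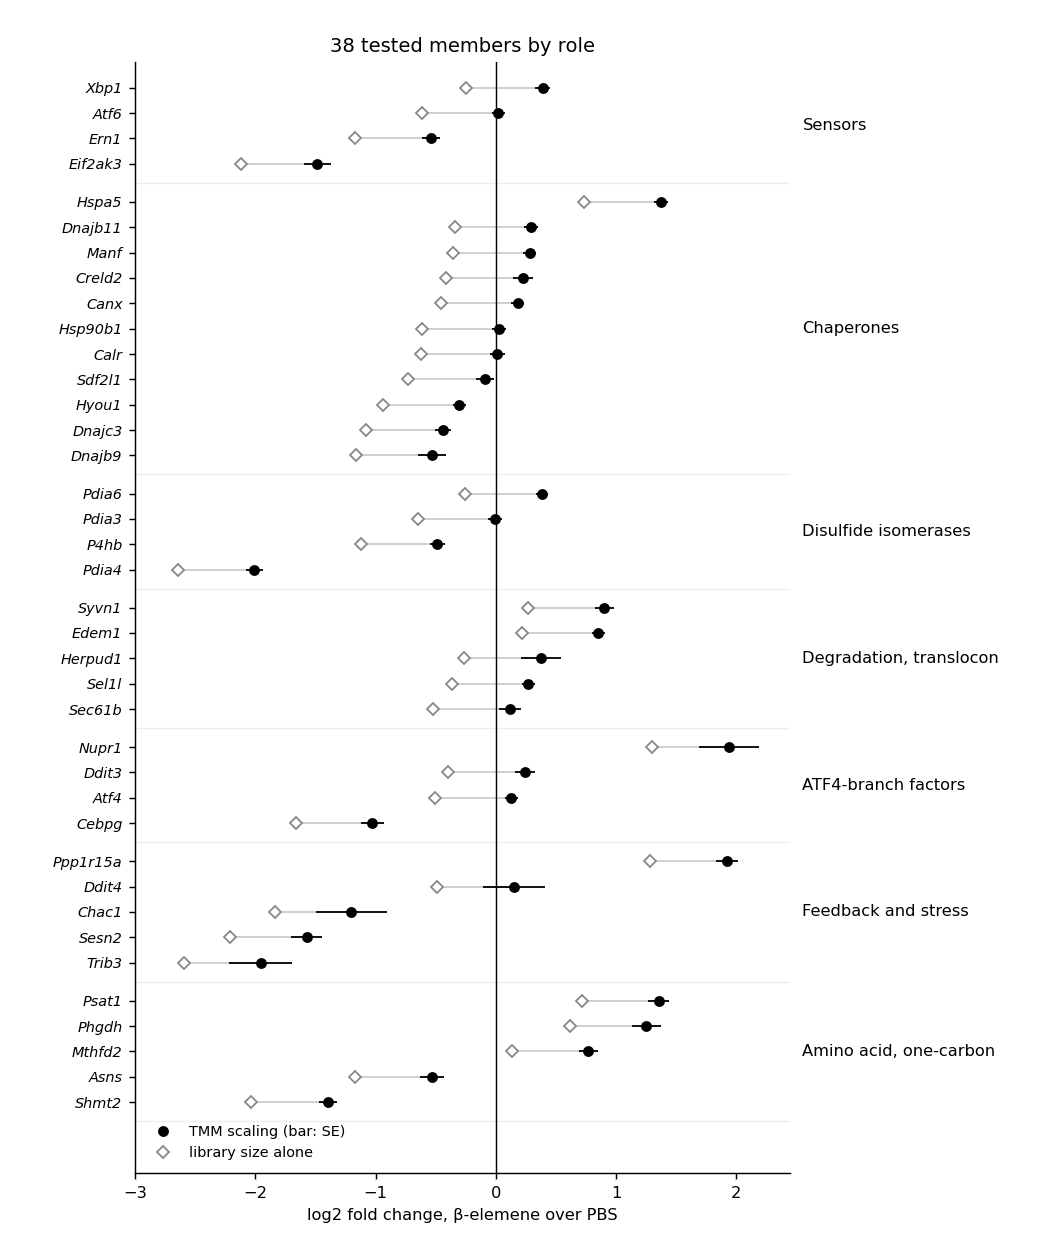
Log2 fold change of β-elemene over PBS for the 38 tested members by role, with filled points for TMM scaling (bars, SE) and open diamonds for library size alone. The diamonds lie about 0.64 to the left of the points, so members between 0 and about 0.6 change side while Hspa5 at 1.37 and Pdia4 at -2.01 do not.

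Transcripts of the stress sensors were lower or nearly level with β-elemene. Eif2ak3, the gene of PERK (chromosome 6, 70844484 to 70905241), had 7.26, 8.46 and 10.24 CPM in the β-elemene libraries, against 23.7, 25.6 and 23.4 CPM in the PBS libraries. It fell by 1.48 on the log2 scale (SE 0.11, edgeR adjusted p = 4.92e-08), and the highest β-elemene library lay below the lowest PBS library. Ern1, the gene of IRE1, had 18.2, 17.8 and 18.7 CPM with β-elemene, against 25.2, 27.3 and 26.9 CPM with PBS, and fell by 0.54 (SE 0.08, edgeR adjusted p = 2.53e-05). Atf6 had 84.3, 81.7 and 89.8 CPM with β-elemene, against 84.9, 83.5 and 83.8 CPM with PBS. Its log2 fold change was 0.02 (SE 0.06, edgeR adjusted p = 0.75) and its groups overlapped, whereas with library size alone it was -0.62. Xbp1, whose transcript is the substrate of IRE1, had 129, 115 and 119 CPM with β-elemene, against 88.9, 96.5 and 92.2 CPM with PBS. It rose by 0.39 (SE 0.06, edgeR adjusted p = 5.76e-05) but fell by 0.25 with library size alone, and with the upper quartile its log2 fold change was 0.07 (adjusted p = 0.268). The ratio of Xbp1 to Ern1 counts within a library, which needs no scaling and was chosen after the values were seen, was 6.39 to 7.10 in β-elemene libraries and 3.42 to 3.53 in PBS libraries.

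Among the 11 chaperones and co-chaperones, Hspa5 stood apart from the rest. Hspa5 encodes BiP, the main Hsp70 chaperone of the endoplasmic reticulum and the protein that holds the sensors inactive (chromosome 2, 34772090 to 34776529). It had 1122, 1128 and 1174 CPM in the β-elemene libraries, against 438, 449 and 437 CPM in the PBS libraries. That is a rise of 1.37 on the log2 scale (SE 0.06, edgeR adjusted p = 9.79e-11), or 2.59-fold, and 0.73 with library size alone. Hspa5 overlaps Rabepk in the annotation, and how reads in the shared stretch were assigned is not given in the labels. Hsp90b1, the Hsp90 family chaperone GRP94, had 537, 581 and 561 CPM with β-elemene, against 545, 558 and 547 CPM with PBS. Calr, the lectin chaperone calreticulin, had 689, 766 and 734 CPM with β-elemene, against 719, 714 and 737 CPM with PBS. For both the groups overlapped, with log2 fold changes of 0.03 and 0.01 (edgeR adjusted p = 0.689 and 0.866), which became -0.61 and -0.63 with library size alone.

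The other chaperones moved little and in both directions. Hyou1, a nucleotide exchange factor for BiP, averaged 96.2 ± 3.38 CPM with β-elemene and 119 ± 2.73 CPM with PBS (SD, n = 3 each), a fall of 0.31 (SE 0.05). Dnajb9 and Dnajc3, J-domain partners of BiP of which Dnajc3 also inhibits PERK, fell by 0.53 (SE 0.12) and 0.44 (SE 0.07). Dnajb11, a further J-domain partner, averaged 154 ± 10.6 CPM with β-elemene and 126 ± 0.89 CPM with PBS, and rose by 0.29 (SE 0.06) with TMM scaling but not with library size alone (-0.34). Manf, a secreted stress-induced protein, Creld2 and the membrane lectin chaperone Canx rose by 0.28, 0.22 and 0.18 with TMM scaling, and each was negative with the upper quartile and library size alone. The 4 rises of Dnajb11, Manf, Creld2 and Canx were lost or turned with the upper quartile (-0.02, -0.03, -0.09 and -0.13) and turned with library size alone (-0.34, -0.36, -0.41 and -0.46). The call of Creld2 was also lost without β-elemene replicate 1, PBS replicate 1 or PBS replicate 3 (edgeR adjusted p of 0.0604, 0.0674 and 0.0709). Sdf2l1, a partner of Dnajb11, averaged 30.4 ± 2.25 CPM with β-elemene and 32.3 ± 2.01 CPM with PBS and did not pass (log2 fold change -0.09, edgeR adjusted p = 0.305). It passed as lower with the upper quartile (-0.41) and with library size alone (-0.73). In all, 5 of the 11 chaperones were higher, 3 lower and 3 did not pass, with a median log2 fold change of 0.03, beside 36.6% higher and 40.2% lower over all genes tested. With library size alone 1 chaperone was higher and 10 were lower, beside 18.9% and 69.8% of all genes tested.

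**Figure D2:**
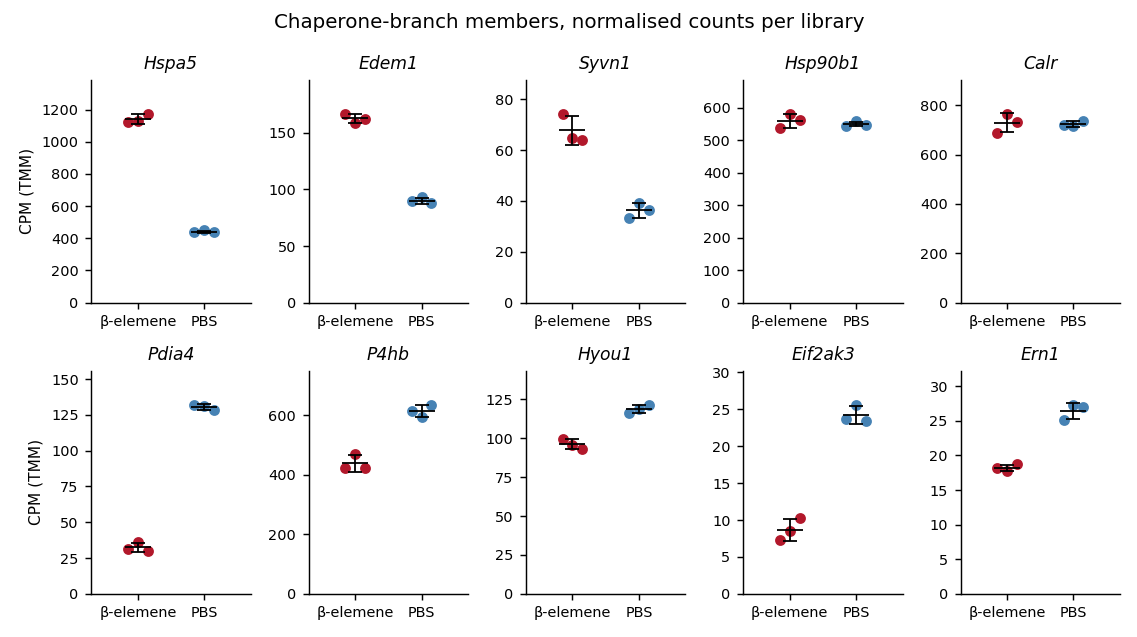
Normalised counts (CPM after TMM scaling, axes from 0) of 10 chaperone-branch members in each library, with β-elemene left and PBS right; horizontal ticks and bars are mean ± SD, n = 3 each. Hspa5, Edem1 and Syvn1 lie higher with β-elemene, Hsp90b1 and Calr overlap, and Pdia4, P4hb, Hyou1, Eif2ak3 and Ern1 lie lower.

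Some promoters of the chaperone branch hold a shared sequence, the ER stress element, and the matches are shown because the genes that hold it had unlike values. RefSeq windows of GRCm38.p6 covering 250 bases before to 50 bases after the start were at hand for 36 of the 39 members, including 21 of the chaperone branch and the 15 of the ATF4 branch. Psat1 and Vldlr had 2 windows each, and a match in either was counted for the gene. The ER stress element was searched on both strands as CCAAT, 9 bases of any kind and CCACG. An exact match was found in 8 of 21 chaperone-branch genes and 0 of 15 ATF4-branch genes, against 37 of 27025 genes with a window (0.137%). Dnajb9, Dnajb11 and Sdf2l1 are among the chaperones with no match. CCACG alone, which is part of that element, was in 17 of 21 and 11 of 15, against 35.5% of all genes, and the UPR element TGACGTGG was in none of the 36, against 0.714% of all genes. The 9 matches are given in the direction of the motif, with CCAAT and CCACG in capitals, from the member with the highest log2 fold change to the lowest.
Hspa5, chr2:34772025-34772043, plus strand, 46 bases before the RefSeq start: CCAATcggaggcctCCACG
Syvn1, chr19:6046532-6046550, plus strand, 25 bases before the RefSeq start: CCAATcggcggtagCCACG
Pdia6, chr12:17266491-17266509, plus strand, 79 bases before the RefSeq start: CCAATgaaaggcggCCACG
Creld2, chr15:88819520-88819538, minus strand, 107 bases before the RefSeq start: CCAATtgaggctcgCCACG
Canx, chr11:50325800-50325818, minus strand, 126 bases before the RefSeq start: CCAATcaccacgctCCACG
Hsp90b1, chr10:86705533-86705551, plus strand, 88 bases before the RefSeq start: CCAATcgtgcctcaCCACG
Hsp90b1, chr10:86705638-86705656, minus strand, 193 bases before the RefSeq start: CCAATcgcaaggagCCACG
Calr, chr8:84847075-84847093, plus strand, 143 bases before the RefSeq start: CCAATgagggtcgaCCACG
Dnajc3, chr14:118937827-118937845, plus strand, 86 bases before the RefSeq start: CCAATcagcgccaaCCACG

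With TMM scaling, genes with the same element covered a wide range of values. Their log2 fold changes were 1.37 for Hspa5, 0.90 for Syvn1, 0.38 for Pdia6, 0.22 for Creld2, 0.18 for Canx, 0.03 for Hsp90b1, 0.01 for Calr and -0.44 for Dnajc3, and with library size alone those of Hspa5 and Syvn1 were still positive while the other 6 were negative. Hsp90b1 held 2 matches and its groups overlapped, whereas Hspa5 held 1. The whole windows of these 2 genes follow, with the matched CCAAT and CCACG letters in capitals (CGTGG and ATTGG where the match lies on the other strand).
Hspa5, chr2:34771840-34772139, plus strand: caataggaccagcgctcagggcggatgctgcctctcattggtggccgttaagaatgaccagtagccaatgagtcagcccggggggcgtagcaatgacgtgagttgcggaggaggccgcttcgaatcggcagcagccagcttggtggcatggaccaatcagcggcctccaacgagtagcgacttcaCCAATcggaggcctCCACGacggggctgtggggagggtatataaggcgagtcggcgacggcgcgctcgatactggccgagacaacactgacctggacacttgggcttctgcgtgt
Hsp90b1, chr10:86705395-86705694, minus strand: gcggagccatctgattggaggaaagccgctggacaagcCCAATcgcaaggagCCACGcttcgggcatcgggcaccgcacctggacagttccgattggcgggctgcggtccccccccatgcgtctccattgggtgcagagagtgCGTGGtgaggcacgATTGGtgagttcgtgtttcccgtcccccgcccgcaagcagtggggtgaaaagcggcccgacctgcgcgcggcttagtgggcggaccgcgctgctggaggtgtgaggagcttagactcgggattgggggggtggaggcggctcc

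Of the 37 genes with the element 15 were tested with TMM scaling, among them the 8 members above. In all, 7 were higher, 3 lower and 5 did not pass, beside 36.6% higher and 40.2% lower over all genes tested. The 7 that are not members had a median log2 fold change of -0.17, and included Spats2l at 5.10 and Adcy3, an adenylyl cyclase, at -1.93. A match is a description of letters, and binding to these windows was not measured.

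The disulfide isomerases, which form and rearrange the bonds between cysteines, were split. Pdia4 (chromosome 6, 47796141 to 47813512) had 31.6, 35.9 and 29.7 CPM in the β-elemene libraries, against 132, 132 and 128 CPM in the PBS libraries. It fell by 2.01 on the log2 scale (SE 0.07, edgeR adjusted p = 1.45e-11), which is the lowest value among the 38 tested members. P4hb, the prototype isomerase PDI, had 423, 470.3 and 423 CPM with β-elemene, against 615, 593 and 635 CPM with PBS, and fell by 0.49 (SE 0.06, edgeR adjusted p = 9.72e-06). Pdia6 averaged 206 ± 6.81 CPM with β-elemene and 158 ± 2.28 CPM with PBS, a rise of 0.38 (SE 0.05) that was 0.07 with the upper quartile (adjusted p = 0.237) and -0.25 with library size alone. Pdia3, which works with calreticulin and calnexin, averaged 444 ± 18.8 CPM with β-elemene and 446 ± 5.37 CPM with PBS, with a log2 fold change of -0.01 (edgeR adjusted p = 0.91). It passed as lower with the upper quartile (-0.32) and with library size alone (-0.64).

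Genes of ER-associated degradation, which pulls misfolded proteins back to the cytosol, were higher or did not pass with TMM scaling, while only Edem1 and Syvn1 of the 5 stayed higher with library size alone. Edem1, a lectin that hands misfolded glycoproteins to the degradation machinery, had 167, 159 and 163 CPM with β-elemene, against 89.7, 93.1 and 87.7 CPM with PBS. It rose by 0.85 on the log2 scale (SE 0.05, edgeR adjusted p = 5.58e-09). Syvn1, the ubiquitin ligase HRD1, had 74.3, 64.9 and 64.1 CPM with β-elemene, against 33.2, 39.1 and 36.6 CPM with PBS, and rose by 0.90 (SE 0.08, edgeR adjusted p = 1.74e-07). Syvn1 overlaps Mrpl49, a mitochondrial ribosome gene. With library size alone these rises were 0.21 and 0.26, still past the threshold (edgeR adjusted p = 0.00188 and 0.00567). Sel1l, the adaptor of HRD1, averaged 190.5 ± 4.08 CPM with β-elemene and 158 ± 5.39 CPM with PBS, a rise of 0.27 that turned to -0.05 with the upper quartile and -0.37 with library size alone. Herpud1, a further partner of HRD1, had 7.07, 9.31 and 5.70 CPM with β-elemene, against 5.69, 5.44 and 5.89 CPM with PBS. It did not pass (log2 fold change 0.37, edgeR adjusted p = 0.0572), but did without β-elemene replicate 3 (0.54, adjusted p = 0.00772) and with DESeq2 (adjusted p = 0.0482); it was -0.26 with library size alone. Sec61b, a subunit of the translocon, averaged 38.9 ± 5.05 CPM with β-elemene and 35.9 ± 2.30 CPM with PBS (log2 fold change 0.12, edgeR adjusted p = 0.245; -0.52 with library size alone).

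The transcription factors of the ATF4 branch did not share a direction. Atf4 itself had 226, 219 and 216 CPM with β-elemene, against 203, 193 and 209.5 CPM with PBS, a difference of 0.13 on the log2 scale (SE 0.05, edgeR adjusted p = 0.0456). This small rise was lost without β-elemene replicate 1, PBS replicate 1 or PBS replicate 2 (adjusted p of 0.0737, 0.105 and 0.161), and turned to -0.19 with the upper quartile and -0.51 with library size alone. Ddit3, the gene of the factor CHOP, which overlaps Mars1 and Mbd6, had 19.99, 18.4 and 19.9 CPM with β-elemene, against 16.0, 16.2 and 17.0 CPM with PBS. Its rise of 0.24 (SE 0.08, edgeR adjusted p = 0.0177) was lost without PBS replicate 1 (0.22, adjusted p = 0.0638), and was -0.07 with the upper quartile and -0.40 with library size alone. Cebpg, a dimer partner of ATF4, had 32.4, 39.3 and 35.9 CPM with β-elemene, against 70.5, 82.5 and 66.4 CPM with PBS. Its fall of 1.03 on the log2 scale (SE 0.09, edgeR adjusted p = 6.26e-07) went against the direction of Atf4 with TMM scaling. Nupr1, a small stress-induced chromatin protein, had 105.7, 70.1 and 114.7 CPM with β-elemene, against 23.3, 20.7 and 31.8 CPM with PBS. It rose by 1.94 (SE 0.25, edgeR adjusted p = 6.71e-04), the highest value among the tested members, with a coefficient of variation of 24.4% and 22.9% in the groups.

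Feedback genes of the branch lay at opposite ends of the range. Ppp1r15a, the gene of GADD34, which recruits the phosphatase that reverses eIF2α phosphorylation (chromosome 7, 45522917 to 45526268), had 52.7, 59.4 and 55.7 CPM in the β-elemene libraries, against 14.1, 16.7 and 13.4 CPM in the PBS libraries. It rose by 1.92 on the log2 scale (SE 0.09, edgeR adjusted p = 2.16e-10), and it overlaps Tulp2. Trib3, a pseudokinase induced by ATF4 and CHOP that restrains ATF4 activity, had 0.677, 1.56 and 2.15 CPM with β-elemene, against 5.73, 5.71 and 5.61 CPM with PBS. It fell by 1.96 (SE 0.26, edgeR adjusted p = 1.63e-05), on 11, 24 and 35 counts in the β-elemene libraries. Sesn2, a stress-induced inhibitor of mTORC1, had 5.78, 4.10 and 4.84 CPM with β-elemene, against 14.9, 14.2 and 14.8 CPM with PBS, and fell by 1.57 (SE 0.13, edgeR adjusted p = 8.02e-08). Chac1, which degrades glutathione, had 1.11, 0.781 and 1.35 CPM with β-elemene, against 2.21, 2.06 and 3.24 CPM with PBS, and fell by 1.20 (SE 0.29, edgeR adjusted p = 0.00211). Ddit4, another mTORC1 inhibitor, averaged 1.85 ± 0.49 CPM with β-elemene and 1.67 ± 0.11 CPM with PBS, and did not pass (log2 fold change 0.15, edgeR adjusted p = 0.606). Vldlr, a lipoprotein receptor gene, had 1, 0 and 1 counts with β-elemene, against 21, 10 and 17 counts with PBS. After scaling by effective library size the ratio of PBS to β-elemene was 14.9, with an exact 95% binomial interval of 3.91 to 127 that covers counting error only.

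**Figure D3:**
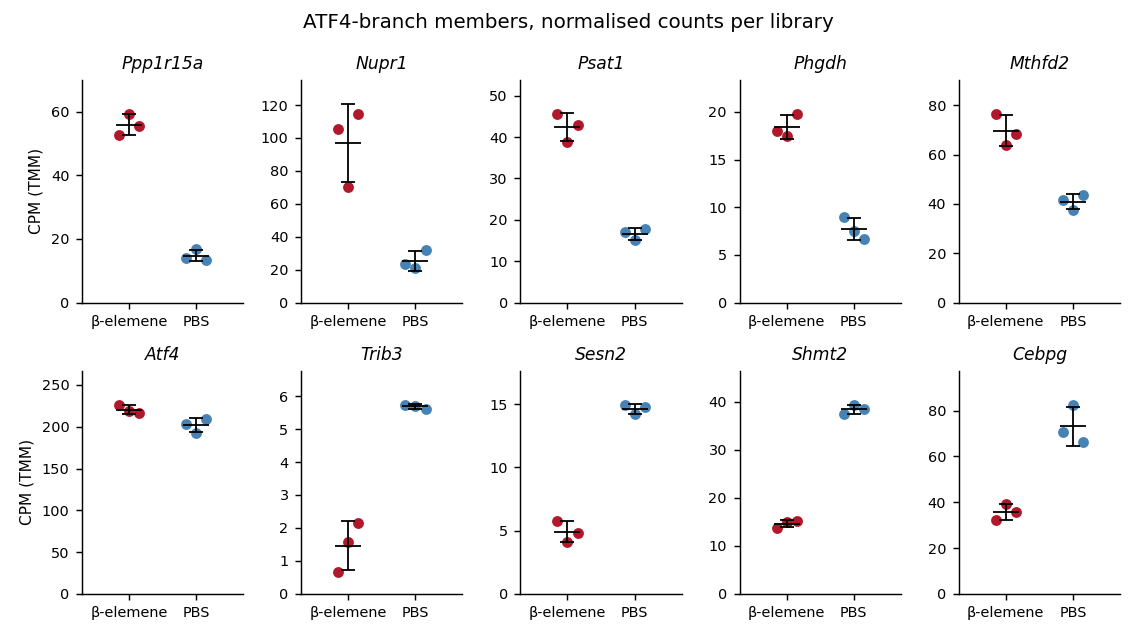
Normalised counts (CPM after TMM scaling, axes from 0) of 10 ATF4-branch members in each library, with β-elemene left and PBS right; horizontal ticks and bars are mean ± SD, n = 3 each. Ppp1r15a, Nupr1, Psat1, Phgdh and Mthfd2 lie higher with β-elemene, Atf4 differs by 0.13 on the log2 scale (-0.51 with library size alone), and Trib3, Sesn2, Shmt2 and Cebpg lie lower.

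The enzymes of serine, asparagine and folate metabolism did not share a direction. Phgdh and Psat1, which catalyse successive steps of serine synthesis from glycolytic 3-phosphoglycerate, were higher with β-elemene. Phgdh had 18.0, 17.4 and 19.8 CPM, against 9.03, 7.50 and 6.67 CPM with PBS, and rose by 1.25 (SE 0.12, edgeR adjusted p = 4.48e-07). Psat1 had 45.6, 38.9 and 42.9 CPM with β-elemene, against 17.1, 15.03 and 17.7 CPM with PBS, and rose by 1.35 (SE 0.09, edgeR adjusted p = 7.32e-09). Shmt2, which turns serine into glycine in mitochondria and charges folate, had 13.7, 14.97 and 15.1 CPM with β-elemene, against 37.5, 39.4 and 38.4 CPM with PBS. It fell by 1.40 on the log2 scale (SE 0.08, edgeR adjusted p = 1.14e-09), and no library of either group came near the range of the other. Shmt2 overlaps Ndufa4l2, and Phgdh has a named pseudogene, Phgdh-ps1. Mthfd2, the next mitochondrial folate enzyme, had 76.6, 64.1 and 68.5 CPM with β-elemene, against 41.6, 37.5 and 43.6 CPM with PBS, a rise of 0.77 (SE 0.08, edgeR adjusted p = 9.75e-07). With library size alone the rise of Mthfd2 was 0.13 and did not pass (edgeR adjusted p = 0.128). Asns, asparagine synthetase, had 20.4, 16.0 and 19.6 CPM with β-elemene, against 28.3, 24.7 and 28.1 CPM with PBS, and fell by 0.53 (SE 0.10, edgeR adjusted p = 2.54e-04).

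The C/EBP-ATF element through which ATF4 dimers act was searched on both strands in the exact form TTGCATCA. It was in 3 of 15 ATF4-branch genes (Nupr1, Chac1 and Vldlr) and in 1 of 21 of the chaperone branch (Herpud1), against 279 of 27025 genes (1.03%). The Vldlr match is in the window chr19:27216770-27217069, and its distance is to the start of that window. The other Vldlr window, chr19:27216234-27216533, lies upstream of the match and holds none. The variant TGATGNAAT was in Nupr1 alone among the members, where it overlaps TTGCATCA on the opposite strand, and in 1.08% of all genes. Other forms of the element were not searched, so a window with no match here, such as that of Asns, may still hold one. The 4 matches are shown with 6 bases on either side and the element in capitals.
Nupr1, chr7:126625567-126625586, minus strand, 102 bases before the RefSeq start: gccagaTTGCATCAgacagg
Chac1, chr2:119351043-119351062, plus strand, 185 bases before the RefSeq start: ctgccgTTGCATCActcctg
Vldlr, chr19:27216814-27216833, plus strand, 192 bases before the RefSeq start: caatagTTGCATCAgcgctc
Herpud1, chr8:94386311-94386330, plus strand, 104 bases before the RefSeq start: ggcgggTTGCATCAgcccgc

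Nupr1 rose by 1.94 while Chac1 fell by 1.20 and Vldlr had fewer counts with β-elemene, so members that hold the same 8 letters differed in direction. Of the 68 genes with the element that were tested, 22 were higher, 28 lower and 18 did not pass, beside 36.6% higher and 40.2% lower over all genes tested.

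Ratios between members within a library are free of any scaling between libraries, and the pairs below were chosen after the values were seen and are given with no test. Hspa5 counts per Hsp90b1 count were 2.09, 1.94 and 2.09 in the β-elemene libraries, against 0.805, 0.804 and 0.799 in the PBS libraries. Ppp1r15a per Atf4 was 0.233, 0.271 and 0.257 with β-elemene, against 0.0694, 0.0870 and 0.0638 with PBS. Psat1 per Shmt2 was 3.33, 2.60 and 2.85 with β-elemene, against 0.455, 0.382 and 0.461 with PBS. In each of these ratios the β-elemene libraries lay above the PBS libraries with a gap wider than the spread inside a group. Trib3 per Ddit3 went the other way, with 0.0338, 0.0851 and 0.108 in the β-elemene libraries, against 0.357, 0.352 and 0.330 in the PBS libraries. Such ratios show unequal change and do not say which partner moved. As shares of all counts, Hspa5 took 0.0897% to 0.0931% of a β-elemene library and 0.0542% to 0.0557% of a PBS library. The other 23 chaperone-branch members together took 0.312% to 0.337% of β-elemene libraries and 0.500% to 0.505% of PBS libraries. Shares of all counts are values scaled by library size alone. With that scaling the median log2 fold change was -0.70 over all genes tested and -0.57 over the chaperone branch.

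**Figure D4:**
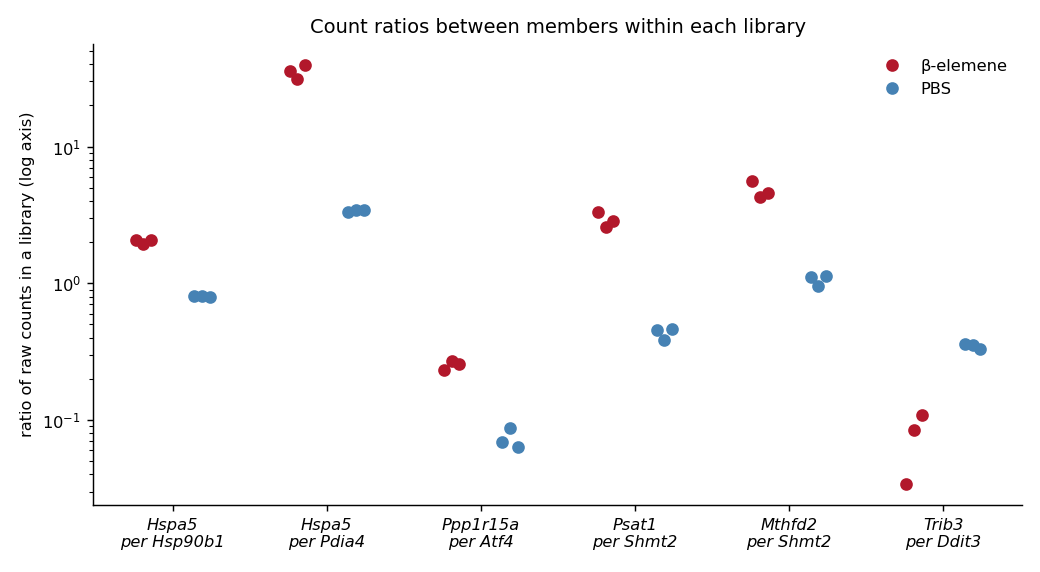
Ratio of raw counts of 2 members within each library (log axis), with β-elemene libraries left of PBS libraries for each pair (pairs chosen after the values were seen). The 3 points of a group lie close together for Hspa5 per Hsp90b1, near 2 with β-elemene and 0.8 with PBS, and are most spread for Trib3 per Ddit3 with β-elemene.

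Genes around the members in the same pathways were taken from 8 lists with 113 genes, of which 105 were tested. In all, 41 were higher, 35 lower and 29 did not pass, with a median of 0.03, close to the -0.06 of all genes. With library size alone 13 were higher and 82 lower. Over all genes tested 36.6% were higher and 40.2% lower with TMM scaling, and 18.9% and 69.8% with library size alone. The counts of each list below are to be read beside these shares.

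The list around eIF2 holds 3 kinases other than PERK and the second partner of its phosphatase. Eif2ak2, the interferon-induced kinase PKR, averaged 654 ± 31.8 CPM with β-elemene and 65.2 ± 7.58 CPM with PBS, a rise of 3.33 on the log2 scale (SE 0.09). Ppp1r15b, the constitutive partner of the eIF2α phosphatase, averaged 503 ± 33.7 CPM with β-elemene and 126 ± 1.44 CPM with PBS, a rise of 2.0 (SE 0.06). Eif2ak4, the amino acid sensor GCN2, fell by 1.51 (SE 0.11) and Impact, its inhibitor, fell by 0.81 (SE 0.06). Of the 14 genes of that list 2 rose, 7 fell and 5 did not pass, beside 36.6% higher and 40.2% lower over all genes tested. With library size alone 2 rose and 12 fell, beside 18.9% and 69.8% of all genes. Of the kinase genes, Eif2ak2 was higher and Eif2ak3 and Eif2ak4 were lower under TMM scaling and library size alone. Eif2ak1, the heme-regulated kinase HRI, averaged 51.7 ± 1.49 CPM with β-elemene and 56.4 ± 1.14 CPM with PBS and did not pass with TMM scaling (log2 fold change -0.12, edgeR adjusted p = 0.0676).

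In the list of ATF4 partner factors 6 of 7 tested genes were higher and 1 lower, and with library size alone 3 were higher and 2 lower. The shares over all genes tested were 36.6% higher and 40.2% lower with TMM scaling, and 18.9% and 69.8% with library size alone. Jdp2, a dimer partner of the AP-1 family, rose by 2.78 (SE 0.13). Gtpbp2, which is on the list but encodes a GTP-binding protein and not a transcription factor, rose by 2.30 (SE 0.09). Atf5, which is translated under the same control as ATF4, averaged 20.5 ± 1.60 CPM with β-elemene and 52.1 ± 4.64 CPM with PBS, a fall of 1.35 (SE 0.09). Amino acid genes went mostly the other way, with 3 of 15 higher, 11 lower and a median of -1.45. Slc7a11, the cystine transporter, averaged 138 ± 27.2 CPM with β-elemene and 57.6 ± 2.29 CPM with PBS, a rise of 1.26 (SE 0.14). Its partner subunit Slc3a2 rose by 0.24, which became -0.40 with library size alone. Slc7a5, the large neutral amino acid transporter, and Slc6a9, a glycine transporter, fell by 2.50 (SE 0.15) and 3.88 (SE 0.31). The third that rose, Cth of cysteine synthesis, had a mean below 1 CPM over the libraries and is named after its values were seen (1.10 ± 0.48 CPM with β-elemene, 0.0519 ± 0.023 CPM with PBS).

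On the endoplasmic reticulum side, 11 of 18 tested degradation genes were higher and 1 lower with TMM scaling, against 0 higher and 16 lower with library size alone. Over all genes tested the shares were 36.6% higher and 40.2% lower with TMM scaling, and 18.9% higher and 69.8% lower with library size alone. Selenok (listed as Selk) and Nploc4 had the highest values at 0.76 and 0.61, and Nploc4 was -0.03 with library size alone. Stt3b, an oligosaccharyltransferase subunit, fell by 1.14 (SE 0.06). Among 18 folding and oxidation genes 8 were higher and 6 lower, led by Dnajc1 at 0.89 and Hspa13 at 0.34, with Cnpy3, a chaperone of Toll-like receptors, at -1.02 and Txndc11 at -0.64. With library size alone 1 folding gene was higher and 16 lower, and Hspa13 was -0.29. Of 15 translocon and signal peptidase genes 5 were higher and 3 lower, with Srpr at 0.71, Ssr3 at 0.66, Sec11a at -0.30 and Spcs3 at -0.30. With library size alone 0 of them were higher and 12 lower, and Srpr and Ssr3 were at 0.07 and 0.02. Of 10 sensing and processing genes 4 were higher and 3 lower. Creb3l1 and Traf2, an adaptor that binds IRE1, rose by 2.39 (SE 0.16) and 1.99 (SE 0.08), while Creb3l2 fell by 2.26 (SE 0.10) and Mbtps1, the protease that cuts ATF6, fell by 0.56 (SE 0.07).

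The last list held apoptosis genes and other outputs, of which 2 of 8 tested were higher and 3 lower. Tnfaip3, an NF-kB inhibitor, rose by 3.72 (SE 0.11) and Bak1, a BCL2 family effector, rose by 1.15 (SE 0.05). Bcl2l11, the CHOP target BIM, averaged 57.0 ± 1.83 CPM with β-elemene and 136 ± 4.20 CPM with PBS, a fall of 1.26 (SE 0.06), and Gadd45a fell by 0.34 (SE 0.12). Apart from Eif2ak1, which did not pass, the edgeR adjusted p of the genes named from the 8 lists was at most 0.0194, the value for Gadd45a.

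**Figure D5:**
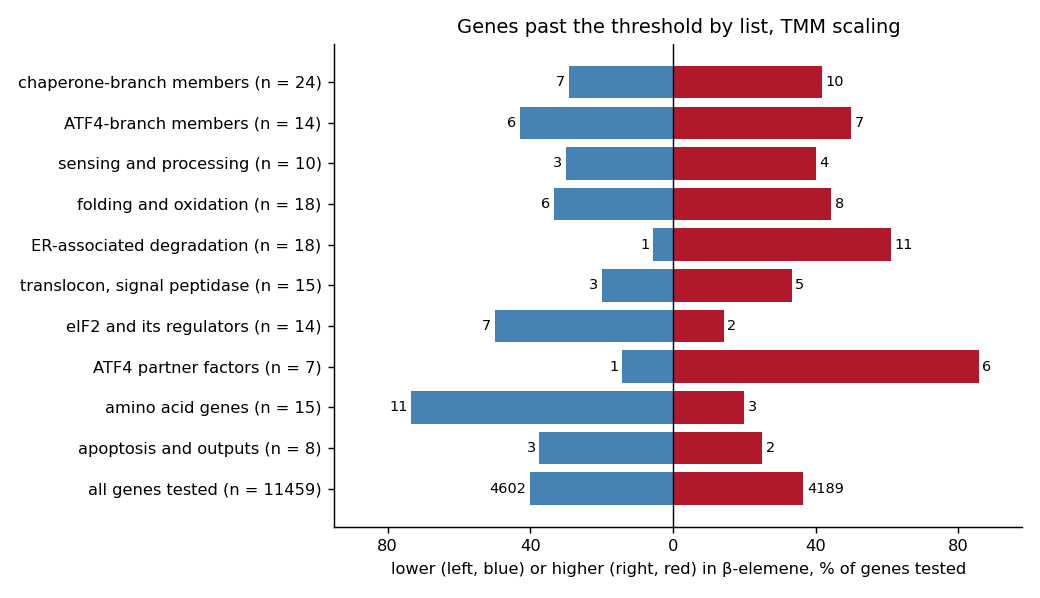
Percent of tested genes past the threshold with TMM scaling in each list, higher with β-elemene to the right in red and lower to the left in blue, with counts at the bar ends. Degradation genes (11 higher, 1 lower) and ATF4 partner factors (6 higher, 1 lower) lean right and amino acid genes (3 higher, 11 lower) lean left, beside 36.6% and 40.2% for all genes tested; with library size alone 0 degradation genes are higher and 16 lower, beside 18.9% and 69.8% of all genes.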

How the data were processed

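Libraries were stranded, paired-end mRNA libraries from total RNA with an integrity number of at least 7, per the labels' protocols. The submitters' processing notes name HISAT2 2.2.1.0 and 2 builds, GRCm38.p6 and mm10, with no counting tool or strand setting. The deposited values are whole-number read counts per gene in 6 columns, not normalised by the authors. Of the 39 members 16 overlap another annotated gene.

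Groups and replicate numbers came from the titles. Genes passing filterByExpr (count of 10, total of 15; 11459 genes) were scaled with TMM (factors 0.794 to 0.812 with β-elemene, 1.24 to 1.26 with PBS) and tested with edgeR 4.0.16 in R 4.3.3 (robust glmQLFit, glmQLFTest, group as the sole term), with Benjamini-Hochberg adjustment over all of them. SE is the log2 fold change over the root of the F statistic. No replicate pair agreed within counting noise (chi-square per degree of freedom 3.83 to 13.9). The fit was tested on simulated data in which few genes changed, as many up as down, so the choice of scaling was not tested there. Alternatives were 3 other scalings, 2 other filters, DESeq2 1.42.0, limma-voom (limma 3.58.1), glmTreat against 1.5-fold, a replicate block and leaving out each library. The members and lists were chosen with earlier results of these data known. Named were all members and, per list, up to 2 rises and 2 falls of largest size among passing genes whose mean reached 1 CPM. Cth and Eif2ak1 were named outside that rule.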

Additional observations from a re-analysis of the deposited data

How the results depend on the processing

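Of the 38 tested members, 7 were higher and 13 lower under all 4 scalings, and scaling was the choice that moved counts most. From TMM the median of all genes moved by 0.04 with median of ratios, -0.32 with the upper quartile and -0.64 with library size alone. A fall with TMM was therefore likely to hold, as all 13 did, so agreement of the 4 scalings adds little for the falls. With library size alone 3 chaperone members were higher and 20 lower, 4 ATF4 members were higher, 13 other pathway genes were higher and 82 lower, and 2166 of all genes were higher and 8003 lower. With the upper quartile 3 chaperone members were higher and 13 lower, and 22 other pathway genes were higher and 65 lower. Against a 1.5-fold change (glmTreat) 3 chaperone members were higher and 2 lower, 15 other pathway genes were higher and 17 lower, and 2396 of all genes were higher and 2532 lower. Members that turned are listed where they passed with TMM or with the other scaling. With the upper quartile their log2 fold changes were Atf6 -0.29, Hsp90b1 -0.29, Calr -0.30, Canx -0.13, Dnajb11 -0.02, Manf -0.03, Creld2 -0.09, Sel1l -0.05, Atf4 -0.19 and Ddit3 -0.07. With library size alone they were Xbp1 -0.25, Atf6 -0.62, Hsp90b1 -0.61, Calr -0.63, Canx -0.46, Dnajb11 -0.34, Manf -0.36, Creld2 -0.41, Pdia6 -0.25, Sel1l -0.37, Sec61b -0.52, Atf4 -0.51 and Ddit3 -0.40. Atf6, Hsp90b1, Calr and Sec61b had not passed with TMM. Sec61b and Ddit4 with the upper quartile, and Herpud1 and Ddit4 with library size alone, also changed sign but passed in neither setting.

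Leaving out 1 library at a time gave 9 to 11 chaperone members higher and 7 lower, and 5 to 7 ATF4 members higher and 6 to 7 lower. With no filter the call of Atf4 was lost (edgeR adjusted p = 0.0997). The data do not settle whether replicate numbers pair the samples, since all correlations between deviations were small. Same-numbered libraries had deviations correlated at -0.0236, 0.0773 and 0.0302. β-elemene replicate 1 correlated best with PBS replicate 3 (0.0557), while β-elemene replicates 2 and 3 correlated best with the PBS replicate of their own number. With the replicate block 10 chaperone members were higher and 7 lower, 6 ATF4 members were higher and 6 lower, and 1 member call was lost, that of Atf4 (adjusted p = 0.0505). Depth limits Vldlr, Ddit4, Chac1 and Trib3, which had fewer than 50 counts in each β-elemene library.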

Other observations

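Levels can be compared between genes only per length, and 38 of the 39 members had a merged exon length in GENCODE M21 (GRCm38). In CPM per kilobase, Hspa5 stood first of the 38 with β-elemene at 269.9, followed by Calr at 253, P4hb at 153, Pdia3 at 141 and Hsp90b1 at 139. With PBS the order was Calr at 251, P4hb at 215, Pdia3 at 142, Hsp90b1 at 136 and Hspa5 at 104. In the ATF4 branch Atf4 was highest, at 93.6 CPM per kilobase with β-elemene and 85.6 with PBS, and Nupr1 came second with β-elemene at 38.5, against 10.1 with PBS. Vldlr was lowest, at 0.00407 with β-elemene and 0.0617 with PBS. These are descriptions with no test, and a library-wide scaling leaves the order within a group as it is.

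The count table also marks genes of the KEGG pathway for protein processing in the endoplasmic reticulum, a list looked at after the other values were seen. It held 161 genes, 23 of them members. Of the 125 tested genes that are not members, 61 were higher, 31 lower and 33 did not pass (edgeR quasi-likelihood test), 48.8% and 24.8% beside 36.6% and 40.2% of all genes tested, with a median log2 fold change of 0.15. With library size alone 22 were higher and 92 lower, where 18.9% and 69.8% of all genes were. Among the 23 members in that pathway 11 were higher and 6 lower.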
